A study of Homo sapiens with 4 samples.

Results

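The genes described here encode the aminoacyl-tRNA synthetases, the enzymes that load each transfer RNA with its amino acid. They were found by name among the protein-coding genes of the deposited table, as genes with the ARS name of an amino acid letter, together with EPRS1, FARSA, FARSB and TARS3. This gave 38 of the 30716 genes in the table, of which 21 have cytosolic names and 17 have the mitochondrial form of the name that ends in 2. RNA-seq had been done on KYSE30, an established human cell line from esophageal squamous cell carcinoma (ESCC), in 4 libraries. The 2 shYY1 libraries came from KYSE30 cells with a stable knockdown by short hairpin RNA of YY1, a zinc finger transcription factor that can activate or repress promoters. The 2 shNC libraries came from KYSE30 cells labelled as the negative control. Both groups are the same line in the same medium, and per the labels' protocols stable cells were selected with puromycin. The labels name neither the hairpin sequences nor the number of hairpins or clones behind a group, so loss of YY1 and other effects of a hairpin cannot be told apart. Whether the libraries of a group came from separate cultures is not said either, so the p-values given here cover only the variation between these libraries, which may be technical.

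Total counts were 71255363 and 69736613 in the shYY1 libraries and 67390336 and 72499865 in the shNC libraries. YY1, the target of the hairpin, was at 35.7 ± 1.96 CPM in shYY1 and 113 ± 4.23 CPM in shNC (SD, n = 2 each), which was 3.17-fold lower in shYY1 (edgeR adjusted p = 6.18e-05). The labels' extraction protocol names retinas as the source, but of 12 retina marker genes only 4 were in the table, and their summed level was 0.0430 to 0.0613 FPKM in shYY1 and 0.0927 to 0.102 FPKM in shNC. CPM are counts scaled to the library size after TMM normalisation, and FPKM are the authors' values, scaled to library and gene length. The 10 markers of squamous epithelium, all in the table, summed to 445 and 419 FPKM in the shYY1 libraries and 510 and 490 FPKM in the shNC libraries. Fibroblast, immune and endothelial markers summed to at most 2.31 FPKM in a shYY1 library and 2.43 FPKM in a shNC library, with the immune genes PTPRC and CD3E at 0. The part of these marker levels in the results was not tested.

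Aminoacyl-tRNA synthetases join an amino acid to its tRNA in an ATP-driven reaction, so that the ribosome can read the tRNA's codon as that amino acid. Human cells use a set of cytosolic enzymes and a separate set for the mitochondrial ribosome, nearly all of them encoded by nuclear genes of their own. Glycyl- and lysyl-tRNA synthetase are exceptions, since the single genes GARS1 and KARS1 encode the enzyme of either compartment. Some cytosolic enzymes are held together with the scaffold proteins AIMP1, AIMP2 and EEF1E1 in a multi-synthetase complex. When uncharged tRNA builds up, the kinase GCN2 phosphorylates eIF2 alpha, the transcription factor ATF4 is made, and ATF4 activates genes of amino acid supply. Among its known targets are cytosolic synthetase genes, through the CEBP-ATF response element, a composite DNA site with the letters TGATGNAA.

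All 38 synthetase genes passed the filter on low counts. In the quasi-likelihood test of edgeR, with p-values adjusted by Benjamini-Hochberg over the 18035 genes tested, 6 of them were higher in shYY1 and 2 were lower. The 6 that rose were the cytosolic HARS1, KARS1, AARS1, CARS1 and NARS1 and the mitochondrial HARS2. Both that fell were mitochondrial, and IARS2 had the larger change. Called were thus 21.1% of the synthetase genes, beside 9.94% of all tested genes. The count rests on single libraries: without shYY1 replicate 1 it was 2 (5.26%, beside 5.94% of all tested genes), without shYY1 replicate 2 it was 3 (7.89%, beside 5.32%), and without either shNC library it was 11 (28.9%, beside 9.49% without shNC replicate 1 and 17.3% without shNC replicate 2). By direction the background was 5.05% higher and 4.90% lower. This background includes many genes of low counts, in which changes are harder to call, while all synthetase genes but TARS3 lie at 5 CPM or more. Among genes at 1 FPKM or more in at least 2 libraries, limma-trend on log2(FPKM + 1) called 1654 of 10939, with 8 synthetase genes among them. How much of the excess goes with abundance was not tested, here or for the shares by class below. The rises were moderate, between 1.21-fold and 1.39-fold, whereas IARS2 was 2.18-fold lower. The other 30 genes did not pass the test, which leaves their direction undecided. Among all 38 genes 27 had a positive log2 fold change, or 71.1% beside 48.8% of all tested genes, and the median was 0.15 beside -0.01.

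**Figure D1:**
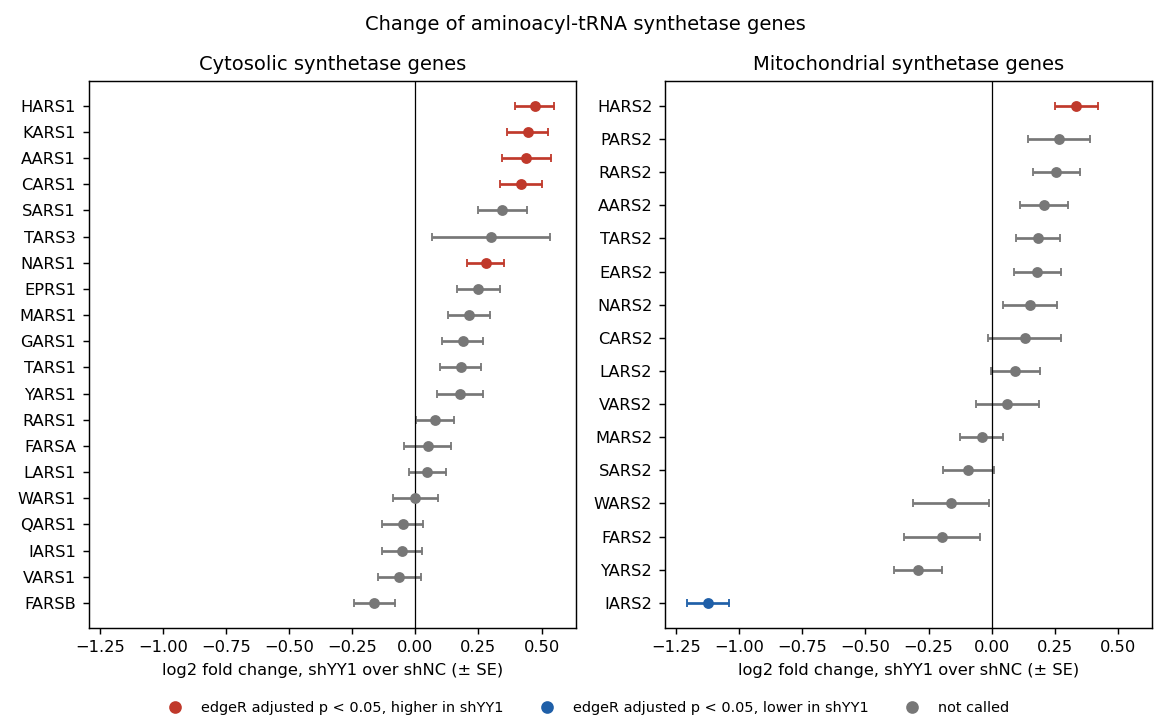
Log2 fold change, shYY1 over shNC, of 36 of the 38 synthetase genes, with its standard error from edgeR, for 20 cytosolic genes at left and 16 mitochondrial genes at right; red points are called higher in shYY1, blue points lower, grey points not called. The cytosolic genes drawn lie between -0.16 and 0.47, while IARS2 at -1.12 stands apart from the other mitochondrial genes drawn.

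Because some of these genes are known ATF4 targets, their promoters were searched for TGATGNAA on either strand, in the 300 bases from 250 before to 50 after each start in RefSeq (GRCh38.p14). The table of promoters held 39 windows for 30 of the 38 genes. Of these windows 8 held the letters, or 20.5%, beside 3.62% of all 35116 windows. The windows belonged to AARS1, CARS1 and NARS1, which rose in shYY1, and to IARS1, MARS1, TARS1, GARS1 and YARS2, which did not pass the test. The form TGATGCAA was in 6 of the 8, and so in 6 of the 39 windows, beside 304 (0.866%) of all windows. The stretches are printed because the same 8 letters lie in genes that were called and in genes that were not. Each runs 5′ to 3′ in the direction of its gene, with the match, or its reverse complement TTNCATCA, in capitals.

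AARS1, chr16:70289665-70289714, minus strand: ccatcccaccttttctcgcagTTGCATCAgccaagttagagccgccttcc

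CARS1, chr11:3057397-3057446, minus strand: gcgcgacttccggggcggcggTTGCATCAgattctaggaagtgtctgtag

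NARS1, chr18:57621794-57621843, minus strand: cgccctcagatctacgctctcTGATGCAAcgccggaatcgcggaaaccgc

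IARS1, chr9:92293682-92293731, minus strand: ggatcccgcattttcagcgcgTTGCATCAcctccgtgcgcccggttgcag

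MARS1, chr12:57488043-57488092, plus strand: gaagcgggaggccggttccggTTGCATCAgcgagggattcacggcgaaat

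TARS1, chr5:33440946-33440995, plus strand: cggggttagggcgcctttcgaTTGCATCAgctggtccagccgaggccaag

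GARS1, chr7:30594824-30594873, plus strand: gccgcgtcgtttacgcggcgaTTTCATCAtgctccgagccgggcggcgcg

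YARS2, chr12:32756066-32756115, minus strand: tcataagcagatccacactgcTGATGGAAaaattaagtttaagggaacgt

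By call, the letters were in 3 of the 6 genes called higher, not in IARS2, which was called lower, and in 5 of the 23 genes not called that had a window. Counted from the start, with bases before it negative, the match began between -33 in GARS1 and 15 in NARS1 in 6 of the genes. In AARS1 and YARS2 it lay farther off, at -187 and -197. In the narrower window of 150 bases before the start, 2 of the 39 synthetase windows held the letters (5.13%, beside 1.90% of all windows). These were GARS1 and IARS1, neither of them called. YY1's own core letters, GCCATNTT or the overlapping CCATNTTG, were in 11 of the 39 windows, or 28.2%, beside 8.75% of all windows. They belonged to 10 genes, of which CARS1, KARS1 and NARS1 were called and FARS2, FARSA, LARS2, SARS2, TARS2, WARS2 and YARS2 were not. In the narrower window the YY1 letters were in 3 of 39 (7.69%, beside 3.20% of all windows), those of CARS1, FARSA and NARS1. In CARS1 the YY1 letters and TGATGNAA lie in the windows of different starts. These are matches of letters only, and no binding was measured in these libraries.

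Of the 21 cytosolic genes 5 rose, none fell and 16 did not pass the test. Called were 23.8% of them, beside 9.94% of all tested genes, but the count was 0 without shYY1 replicate 1, 1 without shYY1 replicate 2 and 8 without either shNC library. Their median log2 fold change was 0.18 and their range -0.16 to 0.47. In 15 of the 21 both shYY1 libraries were above both shNC libraries in CPM, beside 26.8% of all tested genes, in 2 both were below (28.1%), and in 4 the groups overlapped. Groups without overlap, in either direction, were 54.9% of all tested genes. Per library the summed level of the 21 genes was 745 and 723 FPKM in shYY1, against 672 and 671 FPKM in shNC. More cells with these transcripts and more transcripts per cell cannot be told apart in such bulk libraries.

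HARS1 (ENSG00000170445, chromosome 5, 140673035 to 140691537, minus strand, coordinates as deposited) encodes the enzyme that charges histidine tRNA. It was at 215 and 213 CPM in the shYY1 libraries, against 149 and 159 CPM in the shNC libraries. This was the highest log2 fold change among the 38 genes, 0.47 ± 0.0770 (SE; edgeR adjusted p = 0.00724). The call was lost without shYY1 replicate 1 (adjusted p = 0.0567), and the adjusted p ranged from 7.70e-07 to that value over the 14 alternative fits.

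KARS1 (ENSG00000065427, chromosome 16, 75627474 to 75647665, minus strand), the lysyl-tRNA synthetase of cytosol and mitochondria, was at 380 and 387 CPM in shYY1 and at 272 and 291 CPM in shNC. AARS1 (ENSG00000090861, chromosome 16, 70251983 to 70289707, minus strand), which charges alanine tRNA, was at 369 and 377 CPM in shYY1 and at 251 and 299 CPM in shNC. CARS1 (ENSG00000110619, chromosome 11, 3000922 to 3057613, minus strand), for cysteine, was at 102 and 105 CPM in shYY1 and at 73.7 and 81.4 CPM in shNC. In all of these genes the shYY1 libraries lay close together and the groups did not overlap, while the shNC libraries of AARS1 lay farthest apart. The log2 fold changes were 0.44 ± 0.0796 for KARS1, 0.44 ± 0.0971 for AARS1 and 0.42 ± 0.0848 for CARS1 (SE; edgeR adjusted p = 0.0102, 0.0243 and 0.0170). These 3 calls were lost when either shYY1 library was left out, where edgeR gave adjusted p-values of 0.0840 and 0.118 (KARS1), 0.0936 and 0.129 (AARS1) and 0.0836 and 0.134 (CARS1). Their adjusted p-values reached down to 1.16e-06, 0.000144 and 0.000288 in the other alternative fits.

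NARS1 (ENSG00000134440, chromosome 18, 57600656 to 57621836, minus strand), for asparagine, was at 215 and 209 CPM in shYY1 and at 175 and 174 CPM in shNC. The groups did not overlap, and the log2 fold change was 0.28 ± 0.0742 (SE; edgeR adjusted p = 0.0483). With all 4 libraries kept, NARS1 lost its call with library totals as the scaling, without a filter, without robust estimation and in the fits of FPKM. Of the called synthetase genes it was the least stable: the call held in 7 of the 14 alternative fits, with adjusted p-values from 0.00469 to 0.395, the highest without shYY1 replicate 1, and it was lost too without shYY1 replicate 2 (0.335).

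**Figure D2:**
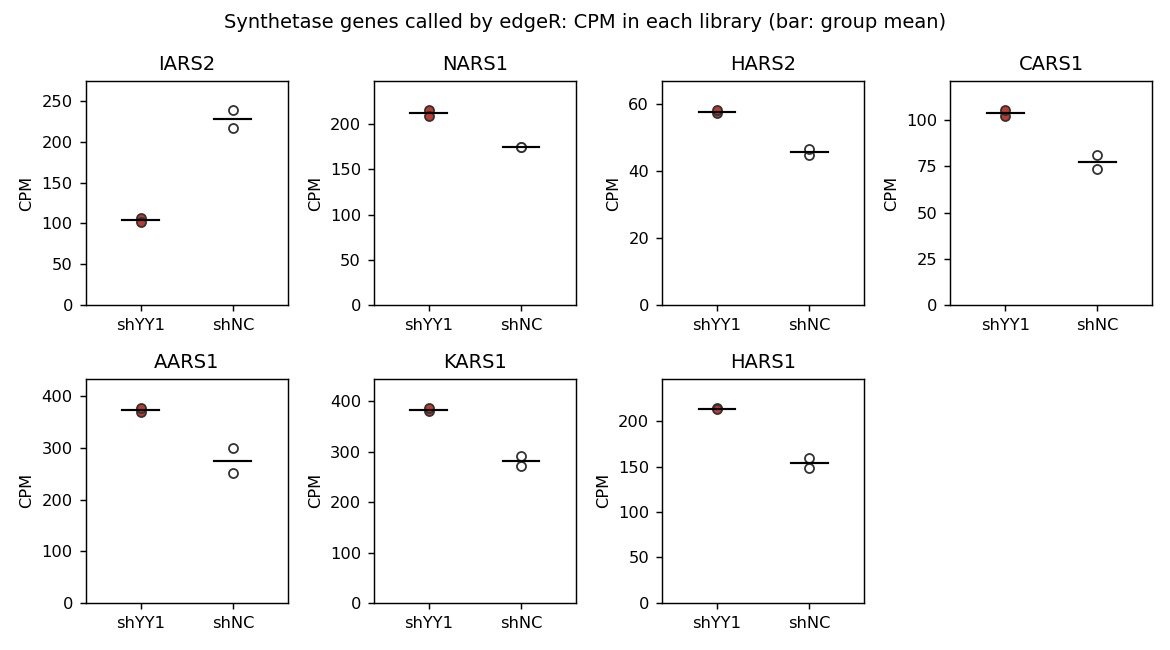
CPM of 7 of the 8 called synthetase genes in each library, with shYY1 (red) left of shNC (open) and a bar at the mean of the 2 libraries of a group; each vertical axis starts at 0. IARS2 was at 107 and 102 CPM in shYY1 and at 238 and 216 CPM in shNC, and in none of the 7 genes drawn did the groups overlap.

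Next below the threshold among cytosolic genes was SARS1, the serine enzyme, at 209 and 204 CPM in shYY1 and 147 and 178 CPM in shNC. Its log2 fold change of 0.34 was as large as that of the called gene HARS2, but its shNC libraries lay far apart and its edgeR adjusted p was 0.0593. It passed in 6 of the 14 alternative fits (adjusted p 0.00153 to 0.255), among them both that left out a shNC library (0.00153 without shNC replicate 2). EPRS1, the fused enzyme for glutamate and proline, was at 395 and 360 CPM in shYY1 and 328 and 307 CPM in shNC, without overlap. Its log2 fold change was 0.25 (edgeR adjusted p = 0.104), and it passed in 2 of 14 alternative fits (adjusted p 0.0219 to 0.627).

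The other 14 cytosolic genes that did not pass had log2 fold changes from -0.16 for FARSB, the beta subunit of the phenylalanine enzyme, to 0.30 for TARS3. TARS3, a paralog of the threonine enzyme, rested on 293 and 330 counts in shYY1 and 291 and 228 in shNC, so its standard error of 0.233 was the widest of the 38. WARS1, the tryptophan enzyme, averaged 71.4 ± 5.07 CPM in shYY1 and 71.4 ± 3.71 CPM in shNC (SD, n = 2 each; log2 fold change 0.00 ± 0.0906 SE). Its fold change changed sign between settings, as did those of FARSA, LARS1, QARS1 and VARS1, and none of these had a decided direction. IARS1, the cytosolic isoleucine enzyme, was at 487 ± 6.69 CPM in shYY1 and 505 ± 4.23 CPM in shNC (SD, n = 2 each; log2 fold change -0.05, edgeR adjusted p = 0.755).

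Synthetases fall into a pair of unrelated catalytic families, class I and class II, which differ in the fold of their active site. Of the 11 cytosolic class II genes 4 rose (HARS1, KARS1, AARS1 and NARS1), beside 5.05% of all tested genes that were called higher, and their median log2 fold change was 0.28. Of the 9 cytosolic class I genes 1 rose (CARS1), which is near that background for so few genes, and the median was 0.05. EPRS1 carries an enzyme of each class and was counted apart. Of the 8 cytosolic enzymes known from the multi-synthetase complex 1 rose (KARS1), with a median of 0.11, and of the 13 outside it 4 rose, with a median of 0.19, again beside a background of 5.05%. These groups were set after the values were seen, and their differences were not tested.

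Of the 17 mitochondrial genes 1 rose, 2 fell and 14 did not pass the test. Called were 17.6% of them, beside 9.94% of all tested genes. Their median log2 fold change was 0.09, and the range of those that did not fall was -0.29 to 0.34. The groups did not overlap in 13 of the 17, with shYY1 above in 8 and below in 5, beside 54.9% of all tested genes without overlap, 26.8% above and 28.1% below. Summed over the 17 genes, the level was 147 and 142 FPKM in the shYY1 libraries, against 179 and 170 FPKM in the shNC libraries. IARS2 alone made up 21.6 and 20.0 FPKM of the sum in shYY1 and 50.6 and 43.6 FPKM in shNC.

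IARS2 (ENSG00000067704, chromosome 1, 220094132 to 220148041, plus strand) encodes the mitochondrial isoleucyl-tRNA synthetase. It had 7525 and 6941 counts in the shYY1 libraries, against 16694 and 15616 in the shNC libraries. Scaled, these were 107 and 102 CPM in shYY1 and 238 and 216 CPM in shNC. Each shYY1 library was below 50% of each shNC library. The log2 fold change was -1.12 ± 0.0832 (SE; edgeR adjusted p = 0.000278). It was called lower in all 14 alternative fits, at -1.19 to -1.05.

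YARS2, the mitochondrial tyrosine enzyme, was the gene nearest to the threshold on the lower side, at 45.3 and 43.1 CPM in shYY1 and 51.2 and 57.1 CPM in shNC. The groups did not overlap, the log2 fold change was -0.29 and the edgeR adjusted p was 0.0912. It passed in 4 of the 14 alternative fits (adjusted p 0.0264 to 0.489). The other 13 mitochondrial genes that did not pass lay between -0.20 for FARS2 and 0.27 for PARS2, with edgeR adjusted p-values of 0.126 or more. CARS2, MARS2, VARS2 and WARS2 overlapped between the groups and changed sign when single libraries were left out.

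HARS2 (ENSG00000112855, chromosome 5, 140691430 to 140699291, plus strand), the mitochondrial histidine enzyme, was the only gene with the mitochondrial form of the name that rose. KARS1, which encodes the enzyme of either compartment, is counted as cytosolic here. HARS2 was at 57.1 and 58.1 CPM in the shYY1 libraries, against 44.7 and 46.6 CPM in the shNC libraries. Its log2 fold change was 0.34 ± 0.0867 (SE; edgeR adjusted p = 0.0435). With all 4 libraries kept, HARS2 lost its call with library totals as the scaling and without robust estimation. The call held in 9 of 14 alternative fits, with adjusted p-values from 0.00907 to 0.305, and was lost without shYY1 replicate 1 (0.244), shYY1 replicate 2 (0.305) or shNC replicate 1 (0.0549).

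HARS1 and HARS2 stand head to head on chromosome 5, so that their transcripts run apart from a shared promoter. In RefSeq (GRCh38.p14) the start of HARS2 lies 85 bases to the right of that of HARS1. The 184 bases that cover both starts are printed because they are the sequence which the 2 genes that rose together have in common. Their GC content was 61.4%. The stretch follows the plus strand, which is the direction of HARS2.

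HARS1 and HARS2, chr5:140691321-140691504: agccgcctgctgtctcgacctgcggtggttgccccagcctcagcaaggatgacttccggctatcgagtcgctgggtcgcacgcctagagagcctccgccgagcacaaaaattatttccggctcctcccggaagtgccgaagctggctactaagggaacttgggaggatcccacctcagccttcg

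Neither TGATGNAA nor a YY1 form was in the promoter windows of these genes. The proteins are also the most alike of the partner pairs, with 367 of 503 aligned residues identical, or 73.0%. In GENCODE 29 the exons of HARS1 and HARS2 share 437 bases on opposite strands, which are 11.7% of the exon bases of HARS2 and 5.56% of those of HARS1. Since it is not given whether counting used the strand, part of the reads of HARS2 may come from HARS1, and how much was not tested. Of the 11 synthetase genes with a tested protein-coding neighbour whose start lies within 1000 bases on the other strand, HARS1 and HARS2 were the only pair with both genes called. Of the 11 neighbours 3 were called, beside 9.94% of all tested genes, and 2 of these were HARS1 and HARS2 themselves. CARS2, which was not called, had the called neighbour ING1, a chromatin reader (log2 fold change 0.51, edgeR adjusted p = 0.0310).

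In the deposited FPKM, the levels of the 38 genes spanned more than 100-fold, from TARS3 to TARS1. The order depends on the gene lengths the authors used. With total counts as library size, counts and FPKM imply a length 0.886 to 4.98 times the exon bases of GENCODE 29 (median 1.19). In many genes the ratio lay near 1.19, where another library size and another gene length cannot be told apart. The ratio was above 1.5 in GARS1, LARS1, AARS1, FARSB, LARS2 and HARS1. With CPM per kilobase of GENCODE 29 exon instead, an alternative added after seeing the data, GARS1 came first (107 as the mean over the 4 libraries), ahead of TARS1 (97.3), KARS1 (81.8) and AARS1 (72.1), and TARS3 was still last (0.890). On the FPKM scale TARS1, the cytosolic threonine enzyme, was at 118 and 111 FPKM in the shYY1 libraries and 110 and 100.1 FPKM in the shNC libraries. KARS1 followed at 78.4 and 77.7 FPKM in shYY1 and 59.0 and 59.9 FPKM in shNC, and FARSA, the alpha subunit of the phenylalanine enzyme, at 58.7 and 55.4 FPKM in shYY1 and 53.9 and 60.2 FPKM in shNC. TARS1 and FARSA did not pass the test. KARS1 and FARSA, next to each other in the order over all libraries, overlapped in shNC and not in shYY1, and FARSA overlapped with IARS1, next in the order, in shNC. At the other end TARS3 was at 0.778 and 0.881 FPKM in shYY1 and 0.815 and 0.586 FPKM in shNC, and next above it was CARS2, without overlap. The median over the cytosolic genes of the mean over the 4 libraries was 33.8 FPKM, and that over the mitochondrial genes 6.12 FPKM. IARS2 was the mitochondrial gene with the highest mean level over the libraries, 34.0 FPKM.

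**Figure D3:**
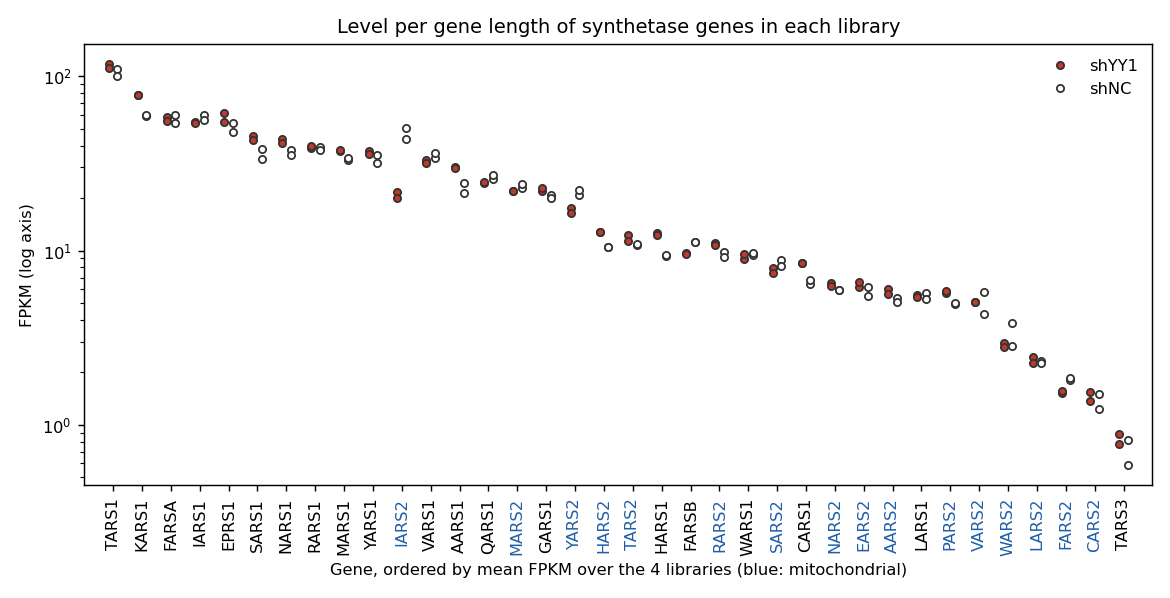
FPKM of 36 of the 38 synthetase genes in each library on a log axis, shYY1 in red at left of each pair and shNC open at right, ordered by the mean over the 4 libraries; names of mitochondrial genes are blue. Most mitochondrial genes sit in the lower part of the order, and among the genes drawn the groups lie farthest apart in IARS2, at 21.6 and 20.0 FPKM in shYY1 and 50.6 and 43.6 FPKM in shNC.

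Mitochondrial and cytosolic genes for the same amino acid were set side by side in 19 pairs, in which EPRS1, FARS2 and TARS2 stand more than once. The cytosolic gene had the higher FPKM in all 4 libraries in 17 pairs, and the mitochondrial gene in 2, HARS2 over HARS1 and TARS2 over TARS3. Per exon base of GENCODE 29 the cytosolic gene was higher in 18 pairs, since HARS2 was then at 0.560 and 0.572 of HARS1 in shYY1 and 0.630 and 0.614 in shNC. In 14 pairs the log2 fold change of the mitochondrial gene was below that of its cytosolic partner. The widest gap was in the isoleucine pair, where the log2 fold change of IARS2 was 1.07 below that of IARS1. IARS2 was at 0.398 and 0.370 of the FPKM of IARS1 in the shYY1 libraries, against 0.841 and 0.772 in the shNC libraries. In the tyrosine and serine pairs the gaps were 0.47 and 0.44, though none of those 4 genes was called. In FPKM the HARS2 level was 1.01 and 1.04 of that of HARS1 in shYY1, against 1.14 and 1.11 in shNC. These gaps are differences between rows of the same fit and were not tested themselves.

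Most partners are distant in sequence. Identity of the proteins, translated from the longest coding sequence in GENCODE 29, was 32.9% for IARS2 and IARS1, and over the 19 pairs it ran from 21.7% for FARS2 and FARSB to 73.0% for HARS2 and HARS1. TARS1 and TARS3, paralogs that both have cytosolic names, were 72.4% identical. Exon bases are shared with another gene by 21 of the 38 genes. In 6 of them the shares, added over all overlapping genes, came to more than 10%. A base shared with several genes is counted for each of them in this sum. Among the called genes only HARS2 is above 10%. SARS2 shares 46.2% with the readthrough gene AC011455.2 and VARS2 22.0% with GTF2H4, so their counts are uncertain. MARS1 shares 5.05% of its exon bases, 355 bases on the opposite strand, with DDIT3, which was called higher. DDIT3 had 550 and 563 counts in shYY1 and 268 and 269 in shNC. MARS1 had 22067 and 22263 in shYY1 and 18446 and 20822 in shNC. With the strand setting not given, part of the DDIT3 reads may come from MARS1, and how much was not tested. A pseudogene named after them exists for 11 of the genes, of which only IARS2P1 was in the deposited table, with at most 3 counts in a library.

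**Figure D4:**
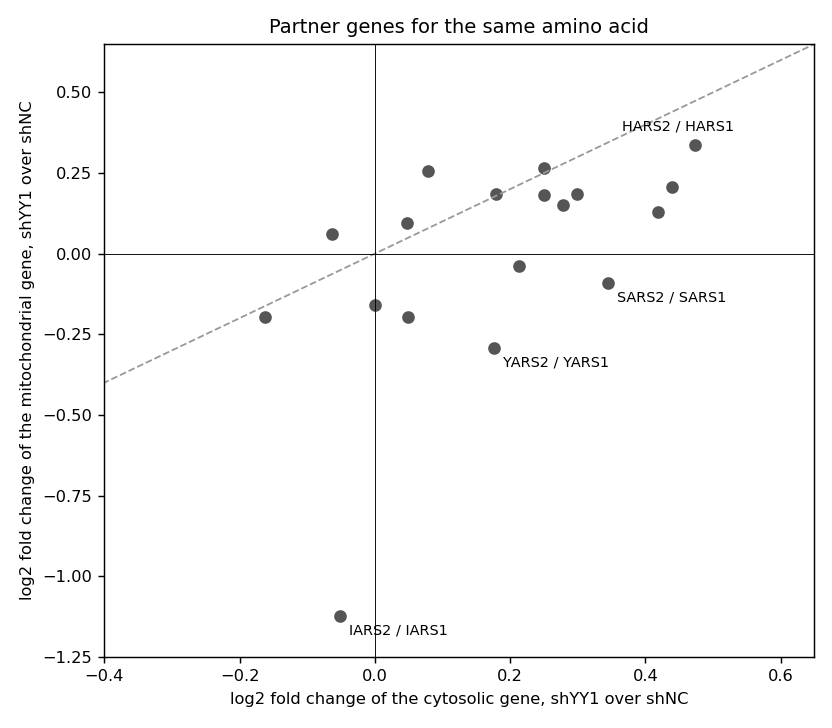
Log2 fold change, shYY1 over shNC, of the mitochondrial gene against that of the cytosolic gene for the same amino acid, 1 point for each of 18 of the 19 pairs; the dashed line marks equal change. The isoleucine point lies at -0.05 for IARS1 and -1.12 for IARS2, far below the line.

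Related gene lists were read by counts and medians beside all tested genes, of which 9.94% were called, 5.05% higher and 4.90% lower. Their calls were not read in the alternative fits. None of the 3 scaffold genes of the multi-synthetase complex passed the test. AIMP1 had a log2 fold change of 0.28 (edgeR adjusted p = 0.0870), EEF1E1 0.29 (0.0964) and AIMP2 0.09 (0.593). None of the 13 genes for editing, amidation, formylation, hydrolysis, CCA addition or export of tRNA passed, with a median of 0.07. Among those with the smallest adjusted p were PTRH2, a peptidyl-tRNA hydrolase (log2 fold change 0.18), TRNT1, which adds the CCA end (-0.21), and GATC, a subunit of the mitochondrial amidotransferase (0.14). None of the 7 cytosolic elongation factor genes passed (median 0.10), and none of the 10 tested genes for mitochondrial translation factors (median -0.04).

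Several genes of amino acid supply rose in shYY1. Of 12 genes of amino acid synthesis that are known as ATF4 targets 11 passed the filter (not ALDH1L2). Of these 6 rose, beside 5.05% of all tested genes, and none fell, with a median of 0.45. GPT2, the mitochondrial alanine aminotransferase, was at 80.1 ± 2.15 CPM in shYY1 and 52.0 ± 1.85 CPM in shNC (SD, n = 2 each; log2 fold change 0.62 ± 0.0840 SE, edgeR adjusted p = 0.00311). The next smallest adjusted p-values were those of MTHFD2, of mitochondrial folate metabolism (0.48), PYCR1, of proline synthesis (0.46), and ASNS, asparagine synthetase (0.45), from 0.00880 to 0.0147 by edgeR. ASNS makes the amino acid that NARS1 loads on tRNA and was at 152 ± 1.82 CPM in shYY1 and 111 ± 11.1 CPM in shNC. PSAT1 and CBS rose too.

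Of 12 sensors and regulators of amino acid stress 11 passed the filter (not NUPR1). Of these 7 rose, beside 5.05% of all tested genes, and none fell, with a median of 0.48. Whether these calls hold with a library left out was not tested. TRIB3, a pseudokinase induced by ATF4, was at 135 and 143 CPM in shYY1 and 66.0 and 72.2 CPM in shNC (log2 fold change 1.01 ± 0.0844 SE, edgeR adjusted p = 0.000505). ATF4 itself was at 542 and 573 CPM in shYY1 and 357 and 396 CPM in shNC (0.56 ± 0.0881 SE, edgeR adjusted p = 0.00605). The ATF4 partner DDIT3 (1.09) and the stress factor ATF3 (0.73) also rose, with edgeR adjusted p-values of 0.00814 and 0.0115. The count of DDIT3 is uncertain because of its overlap with MARS1. In the opposite direction CEBPG, a partner of ATF4, had a log2 fold change of -0.20 (edgeR adjusted p = 0.274) and EIF2AK4, which encodes GCN2, -0.12 (0.510), and neither passed.

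**Figure D5:**
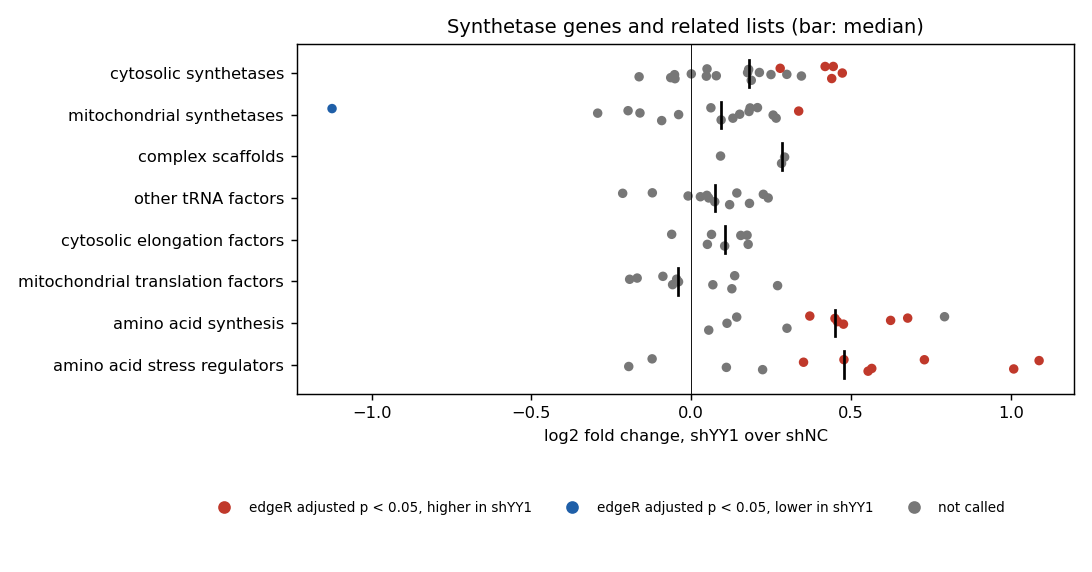
Log2 fold change, shYY1 over shNC, of tested genes of the synthetase classes and the related lists, with a bar at the median over all tested genes of a list; red points are called higher in shYY1, blue points lower, grey points not called. Medians run from -0.04 for mitochondrial translation factors to 0.48 for amino acid stress regulators, and IARS2 is the lowest point shown.

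Words of 7 bases in the 3′ UTR were looked at because an earlier search of these data had found TTCAGAA and TCAGAAA to go with lower expression in shYY1. In annotated 3′ UTRs of GENCODE 29, at least 1 of the words was present in 29.2% of all 12834 tested genes searched, in 65.2% of those called lower and in 17.0% of those called higher. Since that search used the same fold changes, these shares describe how the words were chosen. The groups also differ in length: the median 3′ UTR was 1017 bases over all genes searched, 1792.5 in those called lower and 1218 in those called higher. The part of length in the shares was not tested. Among the synthetase genes, with a shorter median 3′ UTR of 538 bases, 4 of 35 (11.4%) held a word. In IARS2 it was TTCAGAA, starting at base 274 of the 406 bases of the 3′ UTR, and it is shown in capitals with the bases around it.

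IARS2, chr1:220147909-220147915, plus strand (GRCh38): gtggacttaTTCAGAAcatagatat

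YARS2, whose log2 fold change of -0.29 did not pass the test, held both. TARS2, with a log2 fold change of 0.18 that did not pass, held TTCAGAA. HARS2, which rose, held the other word. Whether any of these words was bound by a small RNA was not measured.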

How the data were processed

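Whole-number counts for each gene and library were deposited by the authors and went into the tests without change. The authors also deposited FPKM, scaled to a library size and to gene lengths that are not given. In some genes the implied length was far from the exon bases of GENCODE 29. FPKM served for levels between genes and for an alternative. Bowtie 0.12.2, mm8 and mm9 are named in the submitters' processing notes. The last 2 are mouse builds and cannot describe human Ensembl IDs, and none of the sources used here gives the aligner, counter, build or strand setting of this table. All 38 synthetase IDs lie on the same chromosome in GENCODE 29 (GRCh38), 6 with the same start and end. Columns were assigned to libraries by name.

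The filter was filterByExpr of edgeR with a minimum count of 10 and a minimum total of 15, and 18035 genes passed. The main test was the quasi-likelihood F test (R 4.3.3, edgeR 4.0.16) on group alone, with TMM factors (0.980 to 1.04), robust estimation and Benjamini-Hochberg adjustment over all tested genes at 0.05. CPM are scaled by TMM, and standard errors come from the fold change and F. With 2 residual degrees of freedom, edgeR gave a common biological coefficient of variation of 20.2%. The spread between libraries of the same group was above sampling noise (chi-square per gene 15.5 in shYY1 and 33.5 in shNC). The script was tested on simulated counts, where it recovered 30% of 1.5-fold and 46% of 2-fold changes, and so missed most. Among genes at 5 CPM or more, where all synthetase genes but TARS3 lie, it recovered 53.2% and 77.6%. Its share of false calls exceeded the threshold at either size, so some of the calls here may be false. There were 22 false calls beside 60 changes recovered at 1.5-fold, and 8 beside 92 at 2-fold. The synthetase genes that rose did so by 1.21-fold to 1.39-fold, which is less than either simulated size.

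As alternatives the scaling was changed (RLE factors; library totals), the filter (none; at least 5 CPM in 2 libraries), the tool (DESeq2 1.42.0; limma-trend, limma 3.58.1, on log2 CPM with prior count 2; no robust estimation) and the design (a library left out; a replicate block). FPKM were also tested by limma-trend as log2(FPKM + 1) and as log2(FPKM + 0.1), with genes under 1 FPKM in too many libraries removed. Leaving out a library leaves its group with 1, which is then assumed to vary like the other group. Promoters came from RefSeq (GRCh38.p14). Proteins and 3′ UTRs of at least 50 bases came from the longest coding transcript in the GENCODE 29 basic set.

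The members, the related lists and the tests were chosen with earlier results of these data known. Values in every library are given for called members, the 3 nearest to the threshold that were not called and the 3 with the highest FPKM. Of a related list the text names at most 4 genes with the smallest adjusted p and 2 that went the other way. ING1, IARS1, WARS1, TARS3, CARS2, PSAT1 and CBS were named after a look at their values. Of the 38 synthetase genes 2, and 1 gene of a related list, are in the counts and medians but their own values are not reported or drawn here.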

Additional observations from a re-analysis of the deposited data

How the results depend on the processing

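IARS2 was called lower in all 14 alternative fits, and none of the 8 called synthetase genes changed direction in any of them. The number of called synthetase genes, 8, was 6 to 10 in the fits with all 4 libraries and 2 to 11 when a library was left out, with 2 without shYY1 replicate 1, 3 without shYY1 replicate 2 and 11 without either shNC library. Cytosolic genes called, 5, were 0 to 8 when a library was left out, the lowest without shYY1 replicate 1 and the highest without either shNC library; such fits also have fewer samples. The median of the mitochondrial genes, 0.09, was 0.044 with library totals alone, 0.064 at 5 CPM or more, 0.029 with log2(FPKM + 1), 0.040 with log2(FPKM + 0.1) and 0.060 to 0.12 with a library left out. Library totals alone shifted the median of all genes by -0.05.

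Over all tested genes, 1793 were called, against 2711 by DESeq2 (1470 higher, 1241 lower) and 1024 to 3304 with a library left out (lowest without shYY1 replicate 2, highest without shNC replicate 2). Library totals alone gave 689 higher and 1019 lower, against 910 and 883. With the replicate block 2902 were called and 9 synthetase genes, 7 higher and 2 lower, SARS1 being added. The libraries share only a number: deviations of same-numbered libraries had a correlation of 0.00395.

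Sign changes were limited to 9 synthetase genes, none called. LARS1 was at -0.0026 with library totals, -0.0044 with log2(FPKM + 1) and -0.0051 with log2(FPKM + 0.1). WARS1 was at -0.049 with library totals, -0.029 at 5 CPM or more, -0.00049 with limma-trend, -0.00047 with the replicate block, -0.048 with log2(FPKM + 1), -0.052 with log2(FPKM + 0.1), and -0.071 to 0.074 with a library left out. With a library left out FARSA ran from -0.063 to 0.18, QARS1 from -0.12 to 0.026, VARS1 from -0.15 to 0.030, CARS2 from -0.035 to 0.32, MARS2 from -0.11 to 0.037, VARS2 from -0.098 to 0.25 and WARS2 from -0.32 to 0.027. For these reversals and moves the cause was not tested. TARS3 had no value at 5 CPM or more and in the FPKM fits.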
